A study of Homo sapiens with 4 samples.

Results

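The 10 genes described here, DUSP1, DUSP2, DUSP4, DUSP5, DUSP6, DUSP7, DUSP8, DUSP9, DUSP10 and DUSP16, encode the MAP kinase phosphatases of the dual-specificity phosphatase family. They were taken by gene name from the 60623 genes of the table, and 9 of them were among the 14862 genes with enough counts to be tested. The family was chosen by the counts of DUSP9, which were higher in the CBX7 libraries than in the controls, so its values, and those of the other members in the same contrast, are given as a description without a test. T24, a line established from a human bladder carcinoma and grown in RPMI with serum, was compared as control cells (2 libraries) and as cells expressing CBX7 (2 libraries). CBX7 is a chromobox protein of polycomb repressive complex 1, and in the study's methods it was cloned into a FLAG-tagged pCDH vector. The source of the control vector, the number of clones and the time after transduction are not given in the sources used here, and nothing states that the libraries of a group came from separate cultures, so the spread between them may be technical.

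MAP kinase phosphatases remove the phosphates from both the threonine and the tyrosine of the activation loop of ERK, JNK and p38 kinases and so switch these kinases off. DUSP1, DUSP2, DUSP4 and DUSP5 are nuclear enzymes whose transcription is quickly induced by growth factors or stress, DUSP6, DUSP7 and DUSP9 are cytoplasmic enzymes that prefer ERK, and DUSP8, DUSP10 and DUSP16 act mainly on JNK and p38. Several of them, DUSP4, DUSP5 and DUSP6 above all, are transcribed in response to ERK itself and are widely read as a record of ERK activity. T24 cells carry a mutant HRAS gene, which feeds into the ERK pathway.

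CBX7 itself had 261.4 and 203.3 expected counts in the control libraries and 42852 and 35641 in the CBX7 libraries, so the labels matched its level. The libraries held 20800910 to 25135488 counts each. The epithelial keratin genes KRT7, KRT8 and KRT18 were abundant, at means of 1273, 900.1 and 1184 TPM (a level scaled to both gene length and library size), whereas CDH1, KRT5, KRT20 and the 4 uroplakin genes measured were at or near 0, so that 6 of 14 urothelial and epithelial markers reached 1 TPM. The mesenchymal genes VIM, CDH2 and FN1 were all expressed, with a summed level of 3357 and 3327 TPM in control and 2495 and 2592 TPM in CBX7 cells. CBX7 replicate 1 stood apart, because its ratio to control replicate 1 followed gene length and base composition (Spearman correlation -0.62 with length and 0.41 with GC content across 11077 genes, which are not independent) while the same ratio for replicate 2 did not (0.04 and 0.07). Values of the members are therefore also given by replicate number.

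Because CBX7 acts on chromatin and polycomb complexes are known to favour CpG-rich promoters, the sequence before the start of DUSP9 is shown together with that of DUSP7, an abundant relative of the same ERK-preferring subclass, and of DUSP8, the member with the next largest difference. Each line holds the 250 bases before the RefSeq start, on the strand of the gene and in GRCh38.p14, with every CG dinucleotide in capitals.
DUSP9: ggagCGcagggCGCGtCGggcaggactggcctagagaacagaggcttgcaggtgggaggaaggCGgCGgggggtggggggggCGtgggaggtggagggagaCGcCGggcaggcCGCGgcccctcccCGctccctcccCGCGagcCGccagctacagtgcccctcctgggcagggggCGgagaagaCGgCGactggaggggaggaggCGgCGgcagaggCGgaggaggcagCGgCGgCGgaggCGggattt
DUSP7: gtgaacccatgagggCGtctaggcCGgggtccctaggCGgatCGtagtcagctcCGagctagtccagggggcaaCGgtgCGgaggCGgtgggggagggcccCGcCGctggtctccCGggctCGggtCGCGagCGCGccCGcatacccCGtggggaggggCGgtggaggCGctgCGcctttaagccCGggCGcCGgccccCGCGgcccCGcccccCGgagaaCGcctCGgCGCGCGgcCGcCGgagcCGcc
DUSP8: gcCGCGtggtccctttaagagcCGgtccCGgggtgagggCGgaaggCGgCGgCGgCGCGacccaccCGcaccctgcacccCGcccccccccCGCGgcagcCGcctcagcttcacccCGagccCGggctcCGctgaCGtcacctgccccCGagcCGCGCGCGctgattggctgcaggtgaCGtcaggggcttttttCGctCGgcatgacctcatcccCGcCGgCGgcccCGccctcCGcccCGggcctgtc
The DUSP9 stretch lies on the plus strand at chrX:153642191-153642440 and holds 25 CG dinucleotides. The DUSP7 stretch lies on the minus strand at chr3:52056572-52056821 and holds 36, and the DUSP8 stretch lies on the minus strand at chr11:1572272-1572521 and holds 33. None of the 3 stretches overlaps an exon of GENCODE release 29. Over the full RefSeq window of 300 bases, which adds the first 50 bases of the transcript, DUSP9 had 31 CG dinucleotides and a GC content of 76.3%, against a median of 14 and 58.3% over 27305 promoters. Windows of 8 members were found, and all 8 had at least 19 CG dinucleotides, above that median: 19 in DUSP6 and DUSP10, 29 in DUSP16, 35 in DUSP2, 36 in DUSP1, 44 in DUSP8 and 45 in DUSP7. DUSP4 and DUSP5 were not matched. The RefSeq and GENCODE starts did not always coincide. The windows of DUSP8 (1572222-1572521) and DUSP16 (12562814-12563113) lie wholly before the GENCODE start, and that of DUSP6 (89352452-89352751) lies inside the GENCODE gene. The CpG count of DUSP9 was thus neither the highest nor the lowest of the family. These RNA libraries do not measure binding of CBX7, and a link between the promoter sequence and the DUSP9 level was not tested.

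The letters of 5 transcription factor motifs were searched in the same windows on both strands. The cyclic AMP response element TGACGTCA was found in the windows of DUSP1 and DUSP8 and in 1.98% of all promoters. In the DUSP8 sequence above it can be read as tgaCGtca. TATAAA was found in DUSP1 only, against 12.0% of all promoters. The AP-1 motif TGANTCA (7.76% of all promoters), the ETS motif CCGGAAGT (4.44%) and the CArG box of serum response factor (1.29%) were not found in any of the 8 windows, which says only that these letters are not there. DUSP9 held none of the 5.

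DUSP9, also known as MKP-4, is a cytoplasmic phosphatase that prefers ERK and is known from placenta and from embryonic stem cells. Its gene (ENSG00000130829, protein coding) lies on the plus strand of chromosome X from 153642492 to 153651326 in GRCh38. It was barely detected in control cells, with 7 counts in control replicate 1 and 9 in control replicate 2, and had 103 counts in CBX7 replicate 1 and 65 in CBX7 replicate 2. After TMM normalization these were 0.293 and 0.429 CPM (counts scaled to library size) in control and 4.27 and 2.91 CPM in CBX7 cells. The 2 groups did not overlap. The exact 95% Poisson interval, which covers counting error only, was 0.196 to 0.814 CPM in control replicate 2 and 2.25 to 3.71 CPM in CBX7 replicate 2.

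The mean DUSP9 level was 0.361 ± 0.0957 CPM (SD, n = 2) in control and 3.59 ± 0.959 CPM (SD, n = 2) in CBX7 cells, a ratio of 9.94. In the edgeR fit the log2 fold change was 3.31 (standard error 0.39), and 5 of the 14862 genes tested had a larger one (0.0404% of genes were at or above DUSP9, itself included). By replicate number the CPM ratio was 14.5 in replicate 1 and 6.79 in replicate 2, so the direction was the same in both and the size differed. On the TPM scale DUSP9 had 0.18 and 0.26 TPM in control and 2.09 and 1.79 TPM in CBX7 cells, a ratio of means of 8.82. DUSP9 passed the filter on low counts only through the CBX7 libraries, since both control counts were under 10, and a gene that passes in that way has to differ.

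**Figure D1:**
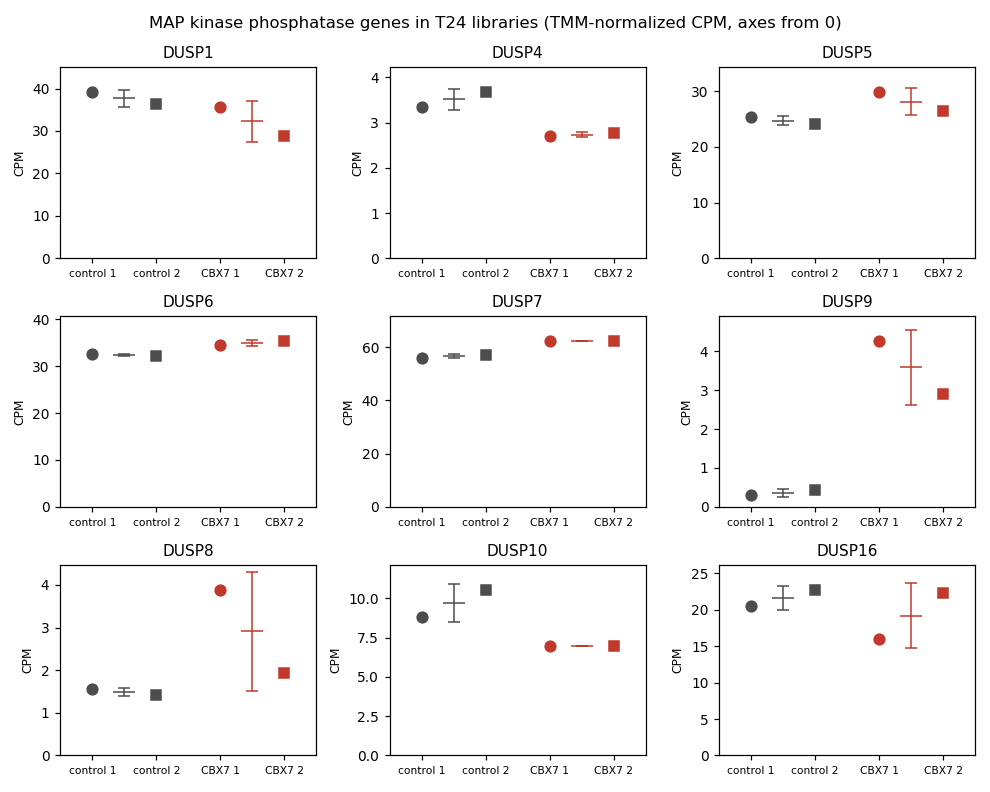
TMM-normalized CPM of the 9 tested members in each library (circles, replicate 1, squares, replicate 2, grey, control, red, CBX7), with the mean and SD of each group beside the points and each axis starting at 0. DUSP9 went from 0.293 and 0.429 CPM to 4.27 and 2.91 CPM, whereas DUSP6 and DUSP7 lay within narrow ranges and DUSP8 was highest in CBX7 replicate 1.

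The 2 other ERK-preferring cytoplasmic phosphatases differed little between the groups. DUSP6 (MKP-3, ENSG00000139318, minus strand of chromosome 12 from 89347232 to 89353271), the classical negative feedback phosphatase of ERK, had 32.5 and 32.3 CPM in control and 34.4 and 35.4 CPM in CBX7 cells. Its log2 fold change was 0.11 (standard error 0.13). On the TPM scale the groups overlapped, at 13.77 and 13.35 TPM against 12.35 and 16.3 TPM. DUSP6 shares 1875 exonic bases with the antisense gene AC024909.2, and since a strand-specific library is not stated, reads of the pair cannot be told apart. The antisense gene was given 4.37 to 10.1 counts per library.

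DUSP7 (ENSG00000164086, minus strand of chromosome 3 from 52048919 to 52056550), which is close to DUSP6 in function and is expressed widely, had 56.0 and 57.1 CPM in control and 62.2 and 62.3 CPM in CBX7 cells. Its log2 fold change was 0.14 (standard error 0.13). Its TPM values overlapped between the groups (22.75 and 24.3 against 21.45 and 26.93 TPM). Thus DUSP6 and DUSP7 did not overlap between groups in CPM but did in TPM, and DUSP9 did not overlap on either scale.

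Within this ERK-preferring subclass DUSP9 remained the scarcest transcript. It made up 0.491% and 0.686% of the summed TPM of DUSP6, DUSP7 and DUSP9 in control libraries 1 and 2, and 5.82% and 3.98% in CBX7 libraries 1 and 2. The level of DUSP6 was 76.5 and 51.4 times that of DUSP9 in the control libraries and 5.91 and 9.11 times that of DUSP9 in the CBX7 libraries. The summed level of the 3 genes was 36.7 and 37.9 TPM in control and 35.9 and 45.0 TPM in CBX7 cells, so these sums overlapped between the groups.

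The nuclear inducible phosphatases did not share a direction. DUSP1 (MKP-1, ENSG00000120129, minus strand of chromosome 5 from 172768090 to 172771195), an immediate-early gene whose product acts on p38 and JNK as well as ERK, had 39.1 and 36.3 CPM in control and 35.6 and 28.9 CPM in CBX7 cells. Its log2 fold change was -0.22 (standard error 0.16), and it was -0.38 without CBX7 replicate 1 and -0.08 without CBX7 replicate 2. DUSP1 was lower in both CBX7 libraries than in both controls, on the TPM scale too (28.07 and 27.18 against 21.6 and 21.98 TPM).

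DUSP4 (MKP-2, ENSG00000120875, minus strand of chromosome 8 from 29333064 to 29350668), a nuclear phosphatase induced by ERK, had 80 and 77 counts in control and 65 and 62 counts in CBX7 cells. These were 3.35 and 3.67 CPM against 2.69 and 2.78 CPM. On the log2 scale the difference was -0.36 (standard error 0.23), and the groups did not overlap in CPM or TPM. The counting intervals of the libraries overlapped, however, at 2.66 to 4.17 CPM in control replicate 1 and 2.13 to 3.56 CPM in CBX7 replicate 2.

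DUSP5 (ENSG00000138166, plus strand of chromosome 10 from 110497838 to 110511544), a nuclear phosphatase that is both induced by ERK and selective for it, had 25.3 and 24.1 CPM in control and 29.8 and 26.4 CPM in CBX7 cells. Its log2 fold change was 0.18 (standard error 0.14), and it was 0.10 without CBX7 replicate 1. In TPM the groups overlapped, at 15.37 and 15.23 against 15.3 and 17.01 TPM. The pseudogene DUSP5P1 had 6 to 13 counts per library, few beside the 506 to 719 counts of DUSP5.

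DUSP2 (PAC-1, ENSG00000158050, minus strand of chromosome 2 from 96143166 to 96145440), which is best known from activated lymphocytes, had 0 counts in 3 libraries and 1 count in CBX7 replicate 2. With a fixed limit of 3 counts, a count of 0 allows up to 0.124 to 0.143 CPM in these libraries. The exact 95% Poisson upper limit of a count of 0, the kind used above for DUSP9 and DUSP4, is 3.69 counts, or 0.153 to 0.176 CPM. All 4 counts of DUSP2 were under 3, so no fold is given.

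**Figure D2:**
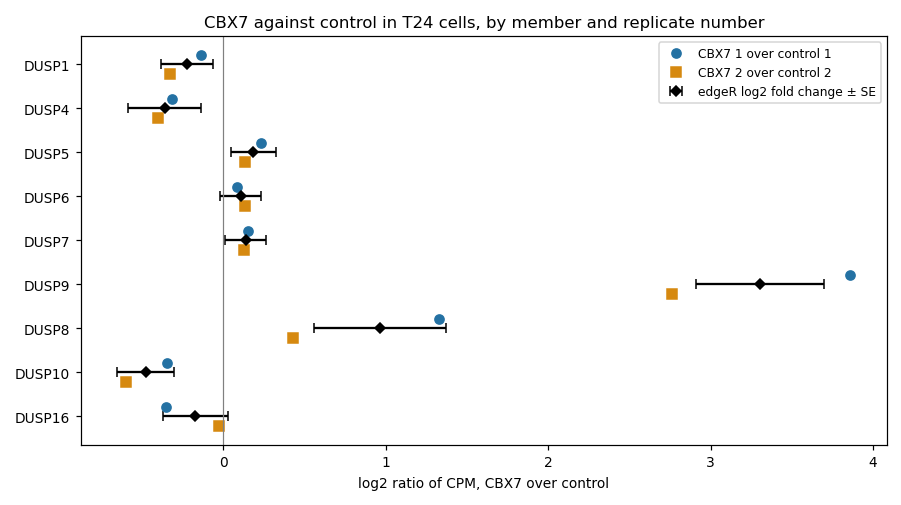
The log2 ratio of CPM, CBX7 over control, for each tested member: black diamonds with bars give the edgeR log2 fold change and its standard error, blue circles the ratio of the replicate 1 libraries and orange squares that of the replicate 2 libraries. DUSP9 lies at 2.76 and 3.86 by replicate number, DUSP8 at 0.43 and 1.33, and the other 7 members between -0.60 and 0.23.

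Set beside DUSP9, the 5 detected phosphatases known to be induced by growth factor signalling (DUSP1, DUSP4, DUSP5, DUSP6 and DUSP7) had log2 fold changes between -0.36 and 0.18. DUSP4 and DUSP1 were on the lower side, and DUSP5, DUSP6 and DUSP7 on the higher side. By replicate number the log2 ratios of the 5 lay between -0.40 and 0.23, where DUSP9 reached 3.86 and 2.76. Since the family was chosen for the DUSP9 value, the contrast between DUSP9 and the rest is a description.

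Of the phosphatases of JNK and p38, DUSP8 was the only other member whose log2 fold change exceeded 0.5 in size, which 90.3% of all genes tested did not, and it rested on 1 library. DUSP8 (ENSG00000184545, minus strand of chromosome 11 from 1554044 to 1571920), an enzyme best known from brain and heart, had 37 and 30 counts in control and 94 and 43 counts in CBX7 cells, or 1.55 and 1.43 against 3.89 and 1.93 CPM. From all 4 libraries its log2 fold change was 0.97 (standard error 0.41). Without CBX7 replicate 1 it was 0.37, and without CBX7 replicate 2 it was 1.38. In TPM the groups overlapped (0.52 and 0.78 against 2.03 and 0.6 TPM), and the replicate 2 ratio was then 0.769, the opposite direction to that in counts. The GC content of DUSP8 (64.6%) is close to that of DUSP9 (65.6%), and CBX7 replicate 1 was the library with the trend in GC content. With a correction for gene length and GC content, added after seeing the data, the log2 fold change of DUSP8 was 0.93, against 0.97 without it, and the part of GC content in its value was not tested further. The pseudogene DUSP8P5 had 37 and 54 counts in control and 24 and 32 counts in CBX7 cells, the same order of magnitude as DUSP8, so the split of reads between these copies is uncertain.

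DUSP10 (MKP-5, ENSG00000143507, minus strand of chromosome 1 from 221701424 to 221742176), which acts on JNK and p38 and restrains inflammatory signalling, was the member furthest on the lower side. It had 8.84 and 10.6 CPM in control and 6.96 and 6.98 CPM in CBX7 cells. This came to a log2 fold change of -0.48 (standard error 0.17), and the groups did not overlap in CPM or in TPM (4.89 and 6.64 against 3.84 and 4.79 TPM). The gap between the lower control and the higher CBX7 library was small in TPM.

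DUSP16 (MKP-7, ENSG00000111266, minus strand of chromosome 12 from 12474210 to 12562383), a JNK phosphatase that shuttles between nucleus and cytoplasm, had 20.5 and 22.8 CPM in control and 16.0 and 22.3 CPM in CBX7 cells. The groups overlapped, and CBX7 replicate 1 was the low library. From all 4 libraries its log2 fold change was -0.17 (standard error 0.20), and it was 0.05 without CBX7 replicate 1 and -0.43 without CBX7 replicate 2. DUSP16, at 6661 bases, is the longest transcript of the family. With a gene length correction in the fit its log2 fold change was -0.05, and the part of length in its value was not tested further.

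Over the family, the groups did not overlap in CPM for 5 members that were higher in CBX7 cells, against 15.4% of all genes, and for 3 that were lower, against 14.8%. In TPM there was 1 such member on the higher side (DUSP9, against 12.2% of all genes) and 3 on the lower side (DUSP1, DUSP4 and DUSP10, against 17.4%). As the contrast chose the family, nothing is read from these counts. The median log2 fold change of the 9 was 0.11, and -0.03 without DUSP9, against 0.00 over all genes tested.

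The order of the levels per length placed DUSP9 low in both groups. In control cells the mean levels were 27.6 TPM for DUSP1, 23.5 for DUSP7, 15.3 for DUSP5, 13.6 for DUSP6, 5.77 for DUSP10, 4.77 for DUSP16, 0.855 for DUSP4, 0.650 for DUSP8 and 0.220 for DUSP9, with DUSP2 listed at 0. No neighbours in that order overlapped between the 2 control libraries. In CBX7 cells DUSP9 moved ahead of DUSP8 and DUSP4, at 1.94 ± 0.212 TPM (SD, n = 2), but DUSP9 and DUSP8 overlapped there, as did DUSP8 and DUSP4. The range of DUSP7 also took in DUSP1, that of DUSP6 overlapped in part with that of DUSP5, and that of DUSP16 took in DUSP10. DUSP9 made up 0.198% and 0.278% of the summed TPM of all 10 members in control and 2.55% and 1.87% in CBX7 cells.

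**Figure D3:**
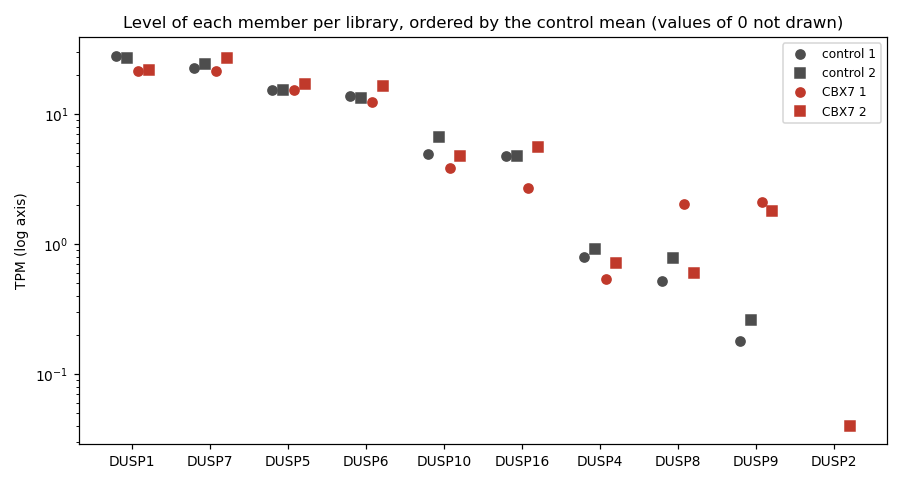
TPM of each member in each library on a log axis, ordered by the control mean, with values of 0 not drawn. DUSP9 stands at 0.18 and 0.26 TPM in control (grey) and 2.09 and 1.79 TPM in CBX7 libraries (red), under the 4 abundant members, which range from 12.35 to 28.07 TPM.

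The genes around DUSP9 on chromosome X were examined to see whether the neighbourhood moved with it. Of the 3 nearest genes on each side, CCNQ, which encodes a cyclin and ends 42447 bases before DUSP9, was the only one with more than 13 counts in a library. CCNQ had 1133 and 971 counts in control and 1571 and 948 counts in CBX7 cells, with a log2 fold change of 0.20 (standard error 0.22, adjusted p = 0.951 in edgeR). The pseudogene AF274858.1 had 7 and 5 counts in control and 13 and 10 in CBX7 cells, with a log2 fold change of 0.87 (standard error 0.47, adjusted p = 0.951 in edgeR). It was higher in both CBX7 libraries than in both controls in CPM and in TPM, as were 15.4% and 12.2% of all genes tested. KRT18P48 had at most 3 counts in a library, as did the kinase gene PNCK, which begins 18404 bases after DUSP9, and RPL18AP16 and RN7SL687P were at 0. Thus CCNQ, the only abundant transcript among these neighbours, was not higher with DUSP9 beyond the spread.

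The 5 genes whose pattern was most like that of DUSP9 over the 4 libraries, out of 14861, were MFAP2, JAG2, C1QL4, EEF1A2 and ARHGEF16. Likeness was the root mean square difference between centred log2 CPM values, which was 0.22, 0.27, 0.27, 0.28 and 0.39 on the log2 scale for these genes. C1QL4, a secreted protein gene, was the one nearest to DUSP9 in depth, with 10 and 10 counts in control and 82 and 59 counts in CBX7 cells. MFAP2, a gene of elastic microfibrils, had 32 and 31 counts in control and 252 and 178 counts in CBX7 cells.

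The lists of genes around the phosphatases were written from their known roles in the pathway. Of 35 genes known to be induced by ERK that are not phosphatases, 32 were tested and 0 passed an adjusted p of 0.05 in edgeR's quasi-likelihood test or DESeq2's Wald test, against 0.0202% and 0.451% of all genes tested. At an unadjusted p under 0.05, 1 was higher and 1 lower, against 3.42% and 1.32% of all genes tested. The median log2 fold change was -0.04, against 0.00 over all genes, with 15 above 0 and 17 below, where 50.3% of all genes lay above 0. The groups did not overlap in CPM for 3 of the 32 on the higher side and 7 on the lower side, against 15.4% and 14.8% of all genes. Log2 fold changes of the 32 ran from -0.70 to 0.94. Among long-used ERK output genes SPRY2, a feedback inhibitor of receptor signalling, was at -0.22 (standard error 0.13), SPRY4 at -0.25 (0.17), PHLDA1 at -0.28 (0.12), ETV4 at 0.12 (0.14), ETV5 at 0.01 (0.15), CCND1 at 0.03 (0.13), FOSL1 at -0.02 (0.14), FOS at 0.30 (0.37), MYC at 0.18 (0.14) and IER2 at 0.16 (0.18). SPRY2 and PHLDA1 were lower in both CBX7 libraries than in both controls in CPM, MYC was higher in both, and the groups overlapped in the other 7. All but PHLDA1 were chosen here after their values were seen, as the best known of the list.

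Within that list the largest differences among genes that averaged 50 counts or more were in TGFA, FOSL2, IL11 and PHLDA1. TGFA, an EGF receptor ligand, had 702 and 636 counts in control and 386 and 463 counts in CBX7 cells, with a log2 fold change of -0.70 (standard error 0.17, adjusted p = 0.597 in edgeR). Over the 11 fits to all 4 libraries its adjusted p ranged from 0.00136, with the replicate block, to 0.627, and 4 of these fits called it. IL11, a cytokine gene, was at 0.54 (standard error 0.17, adjusted p = 0.840 in edgeR), and FOSL2, a FOS family transcription factor, at -0.43 (standard error 0.20, adjusted p = 0.951 in edgeR). The value of FOSL2 was -0.18 without CBX7 replicate 1 and -0.72 without CBX7 replicate 2.

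Of 13 genes of MAP kinases, the substrates of the phosphatases, 11 were tested and 0 passed in edgeR or DESeq2, with a median log2 fold change of 0.06. At an unadjusted p under 0.05, 2 of the 11 were higher and 0 lower, against 3.42% and 1.32% of all genes tested. MAPK3, an ERK gene, was at 0.08 (standard error 0.16). The 2 higher ones were p38 kinases. MAPK11 (p38 beta) had 347 and 334 counts in control and 773 and 530 counts in CBX7 cells, a log2 fold change of 0.87 (standard error 0.19, adjusted p = 0.490 in edgeR). MAPK13 (p38 delta) had 469 and 423 counts in control and 758 and 653 counts in CBX7 cells, a log2 fold change of 0.61 (standard error 0.13, adjusted p = 0.490 in edgeR). Both passed with the replicate block, as 2.43% of all genes did, at adjusted p-values of 4.88e-05 and 0.0125 in edgeR. Over the 11 fits to all 4 libraries the adjusted p ranged from 4.88e-05 to 0.506 for MAPK11, which passed in 4, and from 0.0077 to 0.602 for MAPK13, which passed in 3. The other p38 genes, MAPK12 and MAPK14, were at 0.30 (standard error 0.19) and -0.19 (standard error 0.16). Both values rested on CBX7 replicate 1, without which they were 0.04 and -0.03, and they were 0.52 and -0.35 without CBX7 replicate 2.

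Of 25 genes of the upstream RAS, RAF and MAPK kinase tiers and their scaffolds, 24 were tested and 0 passed in edgeR or DESeq2. At an unadjusted p under 0.05, 2 of the 24 were higher and 1 lower, against 3.42% and 1.32% of all genes tested, and the median log2 fold change was -0.08. MAP2K6, which activates p38, was the lower one, with 145 and 152 counts in control and 46 and 88 counts in CBX7 cells, a log2 fold change of -1.19 (standard error 0.36, adjusted p = 0.823 in edgeR). The log2 fold change was -0.75 without CBX7 replicate 1 and -1.80 without CBX7 replicate 2. Its adjusted p ranged from 0.000122, with the replicate block, to 0.850 over the 11 fits to all 4 libraries, and it passed in 4 of them. The 2 higher ones were scaffolds of the JNK cascade, MAPK8IP1 at 0.41 (standard error 0.14) and MAPK8IP2 at 0.81 (standard error 0.28), each with an adjusted p of 0.943 in edgeR. MAPK8IP3, a related scaffold on the list, lay on the lower side, at -0.30 (standard error 0.13, adjusted p = 0.951 in edgeR). HRAS had 2489 and 2090 counts in control and 4010 and 2240 in CBX7 cells, a log2 fold change of 0.39 (standard error 0.25, adjusted p = 0.951 in edgeR). SOS1, a RAS activator, had 1099 and 1268 counts in control and 700 and 1239 in CBX7 cells, a log2 fold change of -0.33 (standard error 0.33, adjusted p = 0.951 in edgeR). In both genes CBX7 replicate 1 was the library apart and CBX7 replicate 2 lay near the controls.

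**Figure D4:**
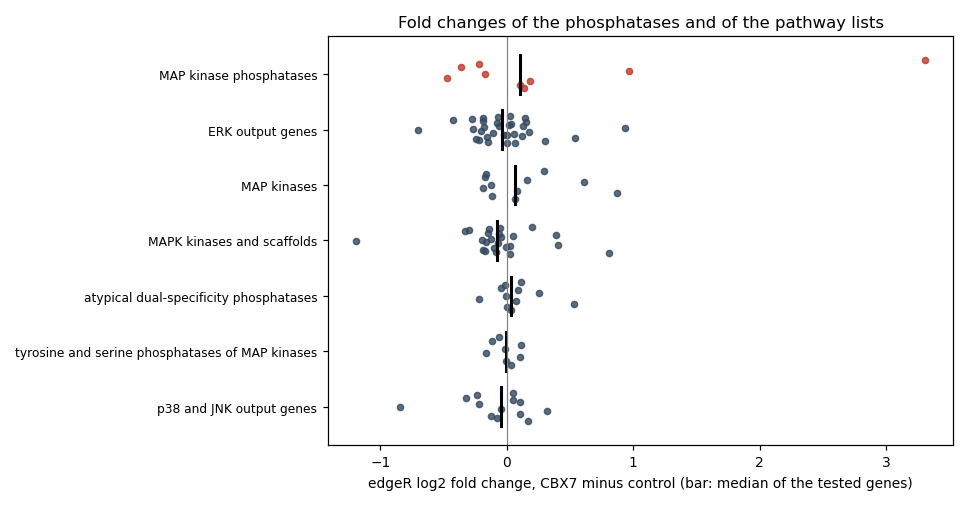
The edgeR log2 fold change, CBX7 minus control, of each tested gene in the phosphatase family (red) and in 6 pathway lists (blue), with a bar at the median of each. DUSP9 lies alone at 3.31, and the medians of the 6 lists lie between -0.08 and 0.06.

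The remaining phosphatase genes on the lists, not all of which act on MAP kinases, differed little. Of 19 names of atypical dual-specificity phosphatases, relatives that lack the kinase-binding domain, 16 were in the table and 11 were tested. None passed in edgeR or DESeq2 (0 of 11), 0 had an unadjusted p under 0.05, and the median log2 fold change was 0.04. DUSP23 was the furthest, at 0.53 (standard error 0.29, adjusted p = 0.951 in edgeR). DUSP23 had 208 and 180 counts in control and 385 and 202 counts in CBX7 cells, high in CBX7 replicate 1 alone. DUSP3, DUSP22 and DUSP28 were at or within 0.02 of 0. DUSP13, DUSP21, DUSP26 and DUSP27 had no count in any library. Of 11 tyrosine and serine phosphatases and their partners, 8 were tested, 0 passed in edgeR or DESeq2 or at an unadjusted p under 0.05, and the median was -0.01. The tyrosine phosphatases PTPN5 and PTPN7 had no count, and PTPRR had at most 5 counts in a library.

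Of 14 genes listed as outputs of p38 and JNK, 13 were tested and 0 passed in edgeR or DESeq2, with a median log2 fold change of -0.05. The list also holds MAPKAPK2 and HSPB1, so it is not a record only of transcription induced by these kinases. At an unadjusted p under 0.05, 0 of the 13 were higher and 1 lower, against 3.42% and 1.32% of all genes tested. The lower one was PTGS2, which encodes an inducible cyclooxygenase, with 76 and 50 counts in control and 35 and 37 counts in CBX7 cells and a log2 fold change of -0.84 (standard error 0.29, adjusted p = 0.941 in edgeR). IL6, a cytokine gene, was at -0.32 (standard error 0.13, adjusted p = 0.951 in edgeR). Over the 11 fits to all 4 libraries its adjusted p ranged from 0.0435 to 1, and 2 called it, those with the replicate block and a correction. CXCL8, a chemokine gene, was at -0.22 (standard error 0.12, adjusted p = 0.951 in edgeR). HSPB1, a small heat shock protein gene, had 7113 and 5750 counts in control and 10690 and 6071 in CBX7 cells, a log2 fold change of 0.32 (standard error 0.24, adjusted p = 0.951 in edgeR) that was -0.07 without CBX7 replicate 1.

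**Figure D5:**
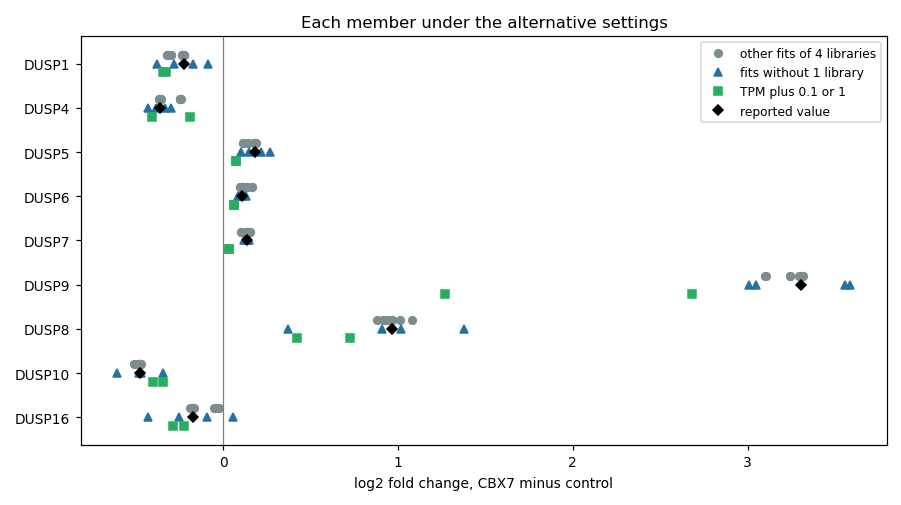
The log2 fold change of each tested member as reported (black), in the other fits to 4 libraries (grey), in fits that each left out 1 library (blue) and from TPM with 0.1 or 1 added (green). DUSP9 stays at or above 3.01 in the count fits in which it was tested and is 2.68 and 1.27 from TPM, and DUSP16 reaches 0.05 when CBX7 replicate 1 is left out.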

How the data were processed

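RNA was sequenced from 2 control and 2 CBX7-expressing T24 libraries. The authors deposited expected counts per gene (not all whole), TPM values scaled by gene length, the gene length, and their own fold changes and p-values, which were not used. The submitters' processing notes name cutadapt 1.9.1, HISAT2 2.0.1, HTSeq 0.6.1, DESeq2 and hg19, without roles; HTSeq gives whole counts, so the tool behind these counts is not settled. Coordinates come from GENCODE release 29 (GRCh38), which held 96.5% of the gene identifiers, and promoters from RefSeq (GRCh38.p14); the files give no coordinates.

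Counts were rounded and passed through filterByExpr and TMM, and edgeR 4.0.16 (R 4.3.3) fitted glmQLFit with group as the only term, tested by glmQLFTest. The standard error was taken as the log2 fold change over the root of the F statistic. DESeq2 1.42.0 was an alternative. The fits were run on simulated counts with the same spread setting for every gene. That checks the code and not its accuracy on these data. With 2 libraries per group, p-values rest on the spread shared across genes. The summed counts were 23626206, 20800910, 25135488 and 21961166, and intervals and limits cover counting error only. Libraries of a group were not copies of each other (chi-square per degree of freedom 6.49 in control and 59.7 in CBX7 cells).

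The members and lists were chosen with earlier results of these data known. Named are all members, CBX7, marker genes, the genes next to DUSP9, the 5 most alike, and, in each pathway list, genes past an adjusted p of 0.05 or else the largest differences among genes with at least 50 mean counts; other list genes were named after their values were seen. The alternatives were other size factors, DESeq2, no filter or a stricter one, the newer quasi-likelihood method, a correction for gene length, the replicate block, TPM, and each library left out; corrections that include GC content were added after seeing the data.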

Additional observations from a re-analysis of the deposited data

How the results depend on the processing

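The log2 fold change of DUSP9 was 3.31 as reported, between 3.10 and 3.31 in the other fits to the counts of all 4 libraries in which it was tested, and between 3.01 and 3.59 across fits that each left out 1 library. From TPM it was 2.68 with 0.1 added and 1.27 with 1 added, where the added value is large beside its control level. With at least 10 counts in every library DUSP9 was not tested. The sign of every other member was kept under all alternatives except that of DUSP16 without CBX7 replicate 1, and CBX7 ranged from 7.26 to 7.44 across fits that left out a library and stayed past the threshold in all fits. Genes past an adjusted p of 0.05 numbered 3 as reported, 67 with DESeq2's Wald test (7.46% lower), 265 with no filter (17.7% lower), 5 after the gene length and GC correction, 361 with the replicate block (25.2% lower), 294 with the replicate block and the gene length correction and 252 with the replicate block and the gene length and GC correction. Their number ranged from 45 to 5491 across fits that left out a library, where the lone library is assumed to vary like the others, and the highest count came without CBX7 replicate 2, when CBX7 replicate 1 stood alone.

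The numbers of list genes called, 0 in every list as reported, were as follows. With no filter 1 gene was called in each of the ERK output genes, the MAP kinases, and the MAPK kinases and scaffolds. With the replicate block, and with the block plus either correction, 1, 2 and 1 genes were called in these lists, and 1 p38 and JNK output gene, IL6, when a correction was added. Across fits that left out a library the numbers ranged from 0 to 14 ERK output genes, 0 to 6 MAP kinases, 0 to 12 MAPK kinases and scaffolds, 0 to 3 atypical phosphatases, 0 to 1 tyrosine and serine phosphatases and 0 to 8 p38 and JNK output genes. The cause of these changes was not tested. The replicate numbers are common to both groups, and nothing states that they mark a batch. Same-numbered libraries deviated from their group means with a correlation of 0.31 over 14862 genes, which with only 2 pairs does not settle whether they are paired.

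With a limit of 3 counts, a count of 0 allows up to 0.124 to 0.143 CPM in the 3 libraries without a DUSP2 count, so a lower level was not detectable there.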
